A study of Mus musculus with 6 samples.

Results

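The genes of MHC class I antigen presentation were followed in mouse liver. The 10 members were taken by symbol from the 32212 rows of the gene count table. They are the heavy chains H2-K1 and H2-D1, the light chain B2m, the peptide loading genes Tap1, Tap2 and Tapbp, the immunoproteasome subunits Psmb8, Psmb9 and Psmb10, and the transactivator Nlrc5. All 10 members had a row, and 10 of 10 passed the filter on low counts. One poly(A)-selected RNA library was sequenced per liver, from 3 WT mice and from 3 mice of the CgA-KO line. CgA-KO mice lack chromogranin A (CgA), a prohormone encoded by Chga that is cut into several regulatory peptides. All 6 mice were male, on the C57BL/6 background, fed normal chow, and carried the age label 2yr. The labels do not give the deleted part of Chga, the litter of each mouse or the hour of collection.

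MHC class I molecules show peptides from inside the cell to CD8 T cells and to NK cells. Proteasomes cut proteins into peptides, and under interferon the catalytic subunits of the standard proteasome are replaced by those of the immunoproteasome. The TAP transporter carries the peptides into the endoplasmic reticulum, where tapasin helps to load them onto a heavy chain held together with beta-2-microglobulin. NLRC5 is a coactivator of the promoters of many of these genes. Nearly all nucleated cells use the pathway, hepatocytes at a modest level and leukocytes and sinusoidal cells at a higher one.

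Total counts ranged from 10558616 to 31087453 per library, and replicates of a genotype differed by more than sampling noise. Chga had 0 counts in all 6 libraries, which allows up to 0.269 TMM-normalized CPM (3 counts) in the shallowest one for counting error only, so its counts are no check of the genotype. The liver label was checked with hepatocyte markers, of which 7 of 8 had a row under the listed symbol. Their summed level lay between 53764 and 90503 CPM in WT, and between 45135 and 75962 CPM in CgA-KO. Levels are TMM-normalized CPM, the counts of a gene relative to the scaled total of its library, with SD over 3 livers. Fold changes of CgA-KO over WT are log2 values with their SE from edgeR's quasi-likelihood test, whose p-values were adjusted over 13867 genes. The smallest p of an exact permutation test of 3 against 3 is 0.1.

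Of the members, 7 lie on chromosome 17 of GRCm38, in or beside the MHC. H2-K1 spans chr17:33996017-34000347 on the minus strand and H2-D1 spans chr17:35262730-35267499 on the plus strand. Tap1, at chr17:34187553-34197225 on the plus strand, and Psmb9, at chr17:34181987-34187764 on the minus strand, overlap head to head. Psmb8 lies at chr17:34197721-34201454, Tap2 at chr17:34203527-34216321 and Tapbp at chr17:33915899-33929292, all on the plus strand. B2m is on chromosome 2, and Psmb10 and Nlrc5 are on chromosome 8. The promoter windows of H2-K1 (chr17:34000298-34000597, minus strand), H2-D1 (chr17:35262844-35263143, plus), B2m (chr2:122147437-122147736, plus) and Tap1 (chr17:34187306-34187605, plus) are shown because these genes form the class I molecule and supply its peptides, and because the Tap1 window is nearly the same DNA as that of Psmb9. Each runs 5′ to 3′ from 250 bases before to 50 bases after the start site, as RefSeq gives it on GRCm38.p6, and capitals mark matches on either strand to the motifs named after them.
H2-K1: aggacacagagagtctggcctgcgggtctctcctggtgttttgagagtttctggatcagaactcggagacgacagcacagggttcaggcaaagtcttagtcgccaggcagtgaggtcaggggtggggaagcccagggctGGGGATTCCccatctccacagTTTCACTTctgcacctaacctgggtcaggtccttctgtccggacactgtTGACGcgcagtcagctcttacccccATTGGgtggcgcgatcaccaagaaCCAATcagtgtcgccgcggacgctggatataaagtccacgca
H2-D1: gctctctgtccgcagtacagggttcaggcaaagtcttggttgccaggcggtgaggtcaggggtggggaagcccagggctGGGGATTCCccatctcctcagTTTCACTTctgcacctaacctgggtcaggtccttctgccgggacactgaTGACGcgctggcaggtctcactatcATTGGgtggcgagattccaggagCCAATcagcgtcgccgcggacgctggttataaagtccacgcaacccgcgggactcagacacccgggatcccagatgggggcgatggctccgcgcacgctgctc
B2m: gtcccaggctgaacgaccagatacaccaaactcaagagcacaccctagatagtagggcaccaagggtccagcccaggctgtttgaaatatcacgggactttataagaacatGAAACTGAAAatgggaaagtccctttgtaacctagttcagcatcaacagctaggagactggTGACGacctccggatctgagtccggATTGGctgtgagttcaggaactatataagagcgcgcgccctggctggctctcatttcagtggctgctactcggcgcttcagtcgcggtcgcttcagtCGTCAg
Tap1: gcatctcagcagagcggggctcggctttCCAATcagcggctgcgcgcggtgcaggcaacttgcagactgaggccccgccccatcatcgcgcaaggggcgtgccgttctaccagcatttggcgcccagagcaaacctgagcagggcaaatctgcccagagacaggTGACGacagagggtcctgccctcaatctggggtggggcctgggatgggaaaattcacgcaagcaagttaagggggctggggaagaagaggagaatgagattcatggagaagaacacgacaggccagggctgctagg
The motifs searched, on both strands, were AAGTGAAA (an interferon regulatory factor core), GAAA followed by any pair of bases and GAAA (an interferon-stimulated response element), TTCNNNGAA (a gamma-activated site), GGGGATTCC (an NF-kappaB site), CCAAT and TGACG (a CRE core). H2-K1 and H2-D1 both hold AAGTGAAA, read on the other strand, and GGGGATTCC. Among all 32817 promoter windows of that length, 1.60% hold the former and 0.250% the latter. Their windows were 87.9% identical over 240 aligned columns. B2m holds the interferon-stimulated response element GAAACTGAAA, whose pattern was present in 3.43% of all windows. CCAAT, in 37.4% of all windows, was found in 6 of the 8 members with an entry, and TGACG, in 20.8%, in 5 of 8. The Tap1 and Psmb9 windows share 275 bases, with start sites 226 bases apart on opposite strands. Their CCAAT matches are the same bases, as are their TGACG matches, so these sites are counted for both genes. Psmb8 holds TTCNNNGAA, present in 8.29% of all windows. A match describes the letters only.

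Of the 10 members, 3 rose at an adjusted p under 0.05 by edgeR, namely Tap1, Psmb8 and Psmb9, and 0 fell. Over all genes tested, 8.60% were called higher and 3.84% lower in CgA-KO, together 12.4%. At an unadjusted p under 0.05 the members numbered 6, against 29.1% of all genes tested. The log2 fold change was above 0 for 10 of 10 members, against 49.4% of all genes tested, and its median was 0.85 for the members against -0.0075 for all genes. Every CgA-KO library lay above every WT library for 5 members (H2-D1, Tap1, Tapbp, Psmb8 and Psmb9), a pattern seen in 19.0% of all genes (33.6% did not overlap in either direction). DESeq2 called 5 members higher, adding H2-D1 and Tapbp, against 10.8% of all genes, and limma-voom called Tap1, Psmb8 and Psmb9, against 9.04%. In bulk tissue, more cells of a type and more RNA per cell cannot be told apart.

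**Figure D1:**
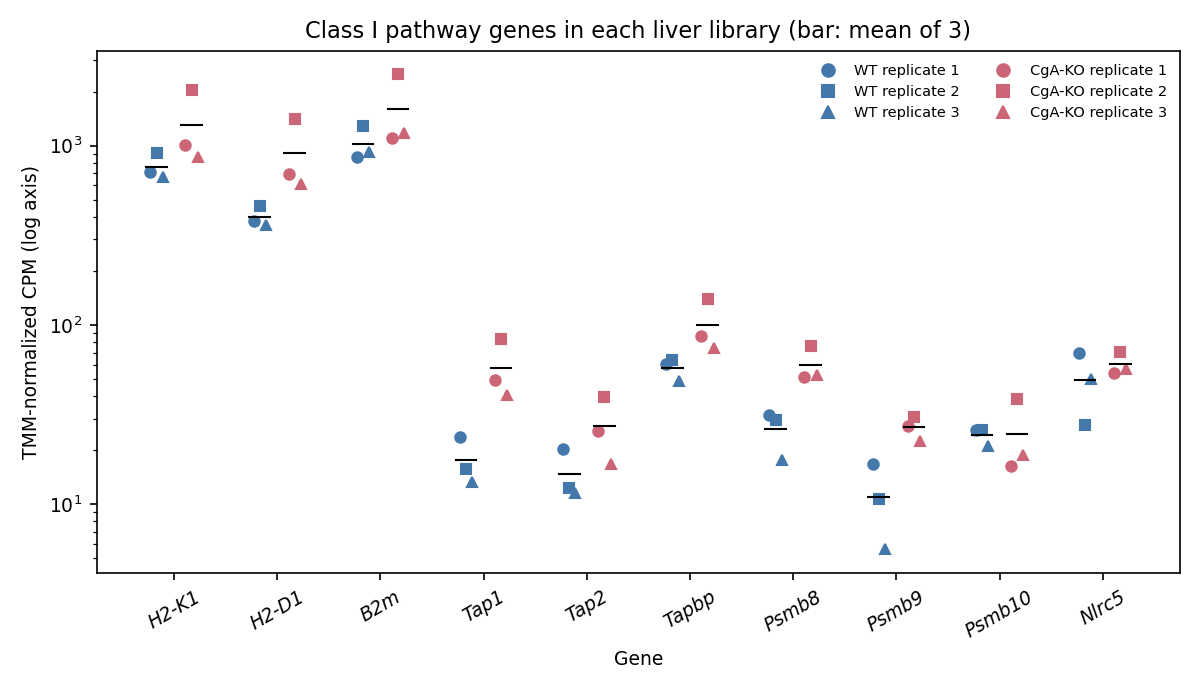
Level of each class I pathway gene in every liver library, in TMM-normalized CPM on a log axis, with 1 symbol per library (WT blue, CgA-KO red) and a bar at the mean of 3. For every gene the square of CgA-KO replicate 2 is the highest of the CgA-KO symbols, and for Tap1, Psmb8, Psmb9, Tapbp and H2-D1 all red symbols lie above all blue ones.

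H2-K1 and H2-D1 are the classical heavy chains of the C57BL/6 mouse, which hold the peptide and are read by CD8 T cells. H2-D1 measured 380, 459 and 359 CPM in WT replicates 1, 2 and 3 and 698, 1416 and 613 CPM in CgA-KO replicates 1, 2 and 3. The genotypes did not overlap, and CgA-KO replicate 2 was far above the other CgA-KO livers. The mean of 909 ± 441 CPM in CgA-KO stood against 399 ± 53.1 CPM in WT, a log2 fold change of 1.19 (SE 0.343), which missed the threshold with an edgeR adjusted p of 0.0545. DESeq2, which the study's methods name, gave H2-D1 an adjusted p of 0.00496. H2-K1 measured 710, 913 and 668 CPM in WT and 1013, 2055 and 863 CPM in CgA-KO. CgA-KO replicate 3 lay below WT replicate 2, so the genotypes overlapped. Its log2 fold change was 0.78 (SE 0.357, 95% interval -0.03 to 1.59), with an edgeR adjusted p of 0.185. Without CgA-KO replicate 2 the log2 fold changes were 0.75 for H2-D1 and 0.34 for H2-K1.

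The heavy chains share sequence with each other and with other class I genes. Of the 31-base words in its transcripts, H2-D1 shared 27.6% with other genes and H2-K1 20.3%, so reads could be divided between them. The ratio of H2-D1 to H2-K1 counts within a library, as log2, was -0.90, -0.99 and -0.90 in WT and -0.54, -0.54 and -0.49 in CgA-KO. It was higher in every CgA-KO library, by 0.41 (SE 0.0337), and varied little within a genotype (exact two-sided permutation p = 0.1, the smallest that 3 against 3 can give, adjusted 0.138 over 11 ratios chosen after the values were seen). To set aside how reads were divided, 17 H2 rows of class I heavy chains were summed. The sum was 3737, 4043 and 3249 CPM in WT and 3692, 6257 and 3487 CPM in CgA-KO, so the genotypes overlapped and the ratio of the means was 1.22. Without CgA-KO replicate 2 the log2 ratio of the means was -0.035, in place of 0.28. The share of H2-K1 and H2-D1 in that sum was 29.2%, 33.9% and 31.6% in WT and 46.4%, 55.5% and 42.3% in CgA-KO. Every CgA-KO library thus had a larger share of the classical chains as counted. Unlike the sum, this share depends on how reads were divided among the H2 genes.

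The other large part of the sum was H2-Q10, a secreted class I heavy chain made by hepatocytes. Its level was 2079 ± 219 CPM in the WT livers and 1453 ± 222 CPM in the knockout, with all CgA-KO libraries below all WT libraries, and its log2 fold change of -0.52 did not pass edgeR's test (adjusted p = 0.215). Relative to H2-Q10 within a library, H2-K1 was higher by 1.21 (SE 0.312) and H2-D1 by 1.61 (SE 0.294) on the log2 scale, without overlap (exact permutation p = 0.1, adjusted 0.138, for both).

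B2m encodes beta-2-microglobulin, the light chain that every class I heavy chain pairs with. Read in the sense direction, its transcripts share no 31-base word with those of another gene. B2m measured 865, 1289 and 926 CPM in WT and 1102, 2498 and 1178 CPM in CgA-KO. WT replicate 2 lay above CgA-KO replicates 1 and 3. The log2 fold change was 0.63 (SE 0.365, 95% interval -0.19 to 1.46; edgeR adjusted p = 0.288). Leaving out CgA-KO replicate 2 gave 0.19. H2-K1 relative to B2m differed by 0.13 (SE 0.116) with overlap (exact permutation p = 0.2, adjusted 0.22).

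Peptide loading held the largest difference among the members. Tap1, a subunit of the peptide transporter, had 264, 369 and 313 counts in WT and 1063, 2627 and 907 counts in CgA-KO, or 23.6, 15.7 and 13.3 CPM against 49.3, 83.3 and 40.7 CPM. The lowest CgA-KO liver was above the highest WT liver. Tap1 rose 3.32-fold, from 17.5 ± 5.43 to 57.8 ± 22.5 CPM (log2 fold change 1.73, SE 0.316, 95% interval 1.01 to 2.45; edgeR adjusted p = 0.0122). Its adjusted p was 0.0667 without WT replicate 2, 0.0646 without WT replicate 3 and 0.0326 without CgA-KO replicate 2.

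Tap2 encodes the other subunit of the transporter. It measured 20.2, 12.3 and 11.5 CPM in WT and 25.4, 39.4 and 16.8 CPM in CgA-KO, and WT replicate 1 exceeded CgA-KO replicate 3. The log2 fold change was 0.90 (SE 0.337; edgeR adjusted p = 0.115). Without WT replicate 1 it was 1.23, with an adjusted p of 0.0450. The log2 ratio of Tap1 to Tap2 counts was 0.22, 0.36 and 0.21 in WT and 0.96, 1.08 and 1.28 in CgA-KO. The ratio was higher in every CgA-KO library, by 0.84 (SE 0.104) (exact permutation p = 0.1, adjusted 0.138).

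Tapbp encodes tapasin, which bridges the transporter and the empty class I molecule. It measured 60.1, 63.9 and 48.8 CPM in WT and 86.7, 139 and 74.0 CPM in CgA-KO, without overlap. The log2 fold change was 0.80 (SE 0.262), with an edgeR adjusted p of 0.0803 and a DESeq2 adjusted p of 0.0436. Without CgA-KO replicate 2 it was 0.52.

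**Figure D2:**
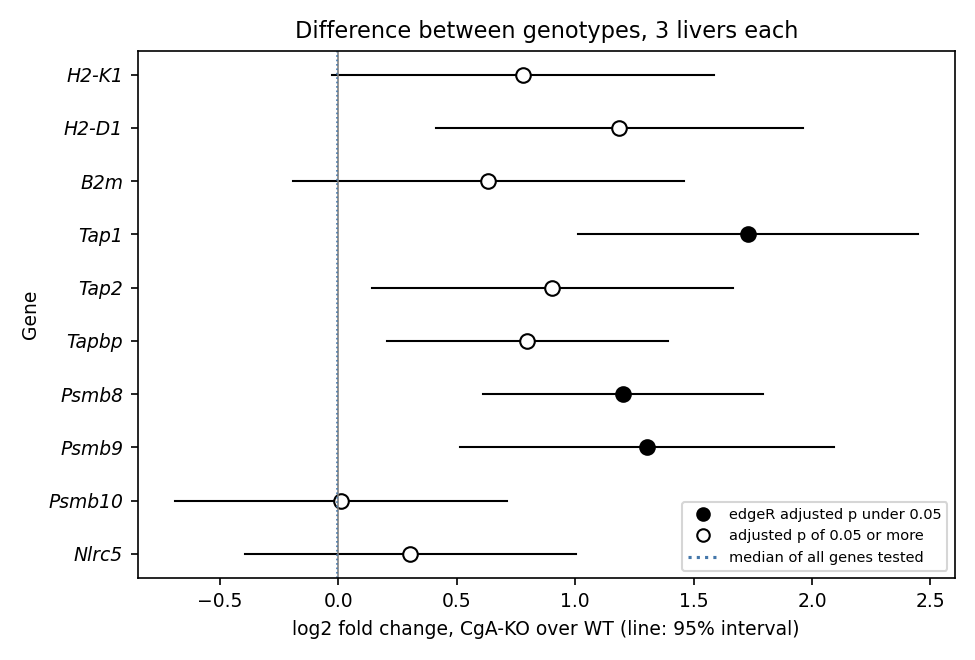
Log2 fold change of CgA-KO over WT for each class I pathway gene (point) with its 95% interval from edgeR (line), 3 livers per genotype, filled where the adjusted p was under 0.05. Tap1 has the largest value, 1.73, and the intervals of H2-K1, B2m, Psmb10 and Nlrc5 include 0.

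Of the immunoproteasome subunits, Psmb8 and Psmb9 rose and Psmb10 did not pass the test. Psmb8 and Psmb9 replace the standard catalytic subunits Psmb5 and Psmb6, and lie beside the Tap genes, while Psmb10 replaces Psmb7 and lies on another chromosome. Psmb8 measured 31.3, 29.3 and 17.7 CPM in WT and 51.2, 75.8 and 52.4 CPM in CgA-KO, without overlap. It rose 2.30-fold, from 26.1 ± 7.38 to 59.8 ± 13.9 CPM (log2 fold change 1.20, SE 0.261; edgeR adjusted p = 0.0208). The adjusted p was 0.0516 without WT replicate 2, 0.0872 without WT replicate 3 and 0.0565 without CgA-KO replicate 2.

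Psmb9 measured 16.7, 10.6 and 5.59 CPM in WT and 27.2, 30.5 and 22.5 CPM in CgA-KO. The CgA-KO livers were close to each other and above all WT livers, among which replicate 3 was lowest. Psmb9 rose 2.47-fold, a log2 fold change of 1.30 (SE 0.349; edgeR adjusted p = 0.0427). This call was lost under 5 of the 6 fits that left out 1 library, with adjusted p-values up to 0.148 (without WT replicate 2), and held only without WT replicate 1. It was also lost with scaling by library size alone (adjusted p = 0.0532). Psmb9 and Tap1 overlap on opposite strands. The strand setting of the counting is not given in the sources used here, so whether reads from the overlap were told apart is not known.

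Psmb10 measured 25.97, 25.99 and 21.2 CPM in WT and 16.3, 38.4 and 18.8 CPM in CgA-KO. CgA-KO replicate 2 was above all WT livers and the other CgA-KO livers were below them. The log2 fold change was 0.011 (SE 0.310, 95% interval -0.69 to 0.71; edgeR adjusted p = 0.985). It was -0.43 once CgA-KO replicate 2 was left out. The log2 ratio of Psmb8 to Psmb10 counts was higher in CgA-KO by 1.31 (SE 0.258), without overlap (exact permutation p = 0.1, adjusted 0.138).

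The standard subunits gave lower values in CgA-KO. The level of Psmb5 was 72.4 ± 13.0 CPM in the WT and 51.3 ± 9.06 CPM in the knockout livers, that of Psmb6 116 ± 25.3 and 76.4 ± 8.46 CPM, and that of Psmb7 121 ± 26.7 and 81.3 ± 13.2 CPM. For all 3, each CgA-KO library lay below each WT library, which 14.6% of all genes did, and none passed edgeR's adjusted test (adjusted p = 0.159, 0.102 and 0.131). A ratio within a library does not depend on scaling. Psmb8 had 0.496, 0.335 and 0.265 counts per count of Psmb5 in WT and 1.25, 1.34 and 0.929 in CgA-KO. The log2 ratio was higher in every CgA-KO library, by 1.71 (SE 0.309; exact two-sided permutation p = 0.1, adjusted 0.15 over 3 ratios). For Psmb9 over Psmb6 the log2 difference was 1.99 (SE 0.553), again without overlap (exact permutation p = 0.1, adjusted 0.15). For Psmb10 over Psmb7 it was 0.47 (SE 0.391) with overlap (exact permutation p = 0.3, adjusted 0.3), and 0.13 without CgA-KO replicate 2. Psmb5 shares 71.7% of its 31-base words with other genes, mostly Gm3375, which had 0 counts in every library.

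**Figure D3:**
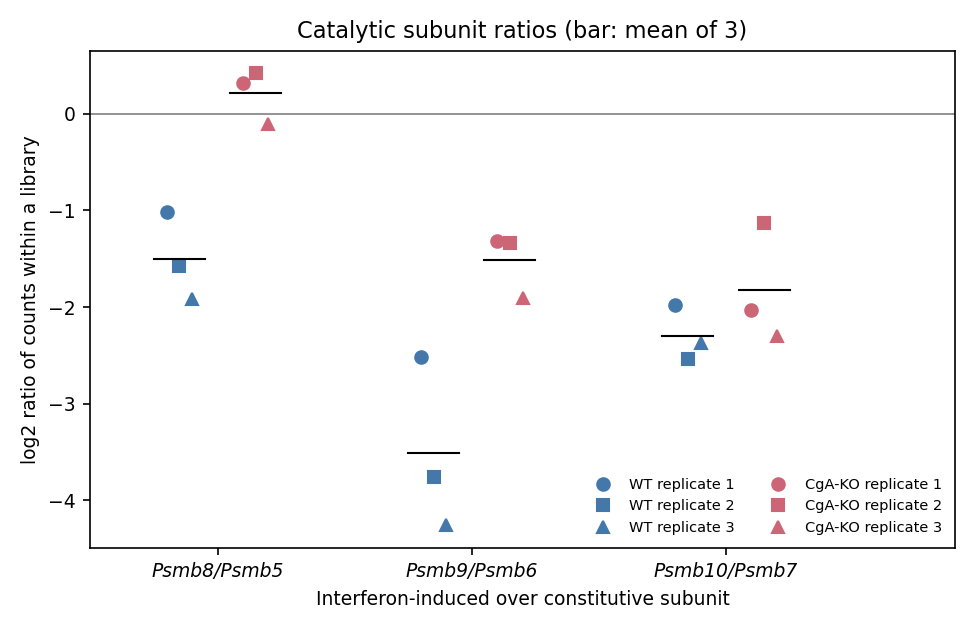
Log2 ratio of the counts of each immunoproteasome subunit to those of the standard subunit it replaces, within each library (WT blue, CgA-KO red, bar at the mean of 3). The differences between the means are 1.71 for Psmb8 over Psmb5 and 1.99 for Psmb9 over Psmb6, both without overlap, and 0.47 for Psmb10 over Psmb7, where the genotypes overlap.

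Nlrc5, the coactivator, was not called. It measured 70.0, 27.6 and 49.6 CPM in WT and 53.7, 70.6 and 56.9 CPM in CgA-KO. The WT livers were widely spread and WT replicate 1 lay within the CgA-KO range. The log2 fold change was 0.30 (SE 0.309, 95% interval -0.40 to 1.00; edgeR adjusted p = 0.563), and 0.67 without WT replicate 1.

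Per kilobase of the longest coding transcript, the order of the WT levels was B2m (1194 ± 266 CPM per kb), H2-K1 (472 ± 80.8), H2-D1 (190 ± 25.3), Tapbp (19.9 ± 2.73), Psmb10 (18.6 ± 2.12), Psmb8 (16.0 ± 4.53), Psmb9 (8.11 ± 4.10), Nlrc5 (6.48 ± 2.80), Tap1 (5.94 ± 1.84) and Tap2 (4.26 ± 1.41). The class I molecule itself was thus far above the genes that supply it. From Tapbp downward, the libraries of each neighbouring pair overlapped. In CgA-KO the order began with B2m (1852 ± 913), H2-K1 (809 ± 401) and H2-D1 (432 ± 210), as within every library of either genotype. Psmb8 (36.7 ± 8.52) and Tapbp (34.5 ± 12.0) followed, then Psmb9 (19.8 ± 2.97), Tap1 (19.6 ± 7.63) and Psmb10 (18.7 ± 9.21), and last Nlrc5 (7.97 ± 1.18) and Tap2 (7.90 ± 3.32). Tap1 was thus below Nlrc5 in the WT means and above it in the CgA-KO means. These levels depend on the transcript chosen for the length.

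The lists of the rest of the pathway held 111 genes, of which 107 had a row under the listed symbol and 98 were tested. EdgeR called 15 of them higher and 1 lower in CgA-KO. Over all genes tested 8.60% were called higher and 3.84% lower, the shares to set beside the counts of each list below. The list of other class I heavy chains also holds class I-like genes outside the H2 family. Of its 17 genes tested, 5 rose and 0 fell, with a median log2 fold change of 0.75. The largest were H2-T24, from 1.45 ± 0.480 to 6.05 ± 3.19 CPM (log2 2.08, SE 0.452; edgeR adjusted p = 0.0207), H2-M3, which presents formylated peptides, from 2.51 ± 1.07 to 9.33 ± 4.50 CPM (log2 1.92, SE 0.430; adjusted p = 0.0230), and H2-T10 (log2 1.44; adjusted p = 0.0430). H2-T24 and H2-M3 were highest in CgA-KO replicate 1, not in replicate 2. H2-T10 is annotated as a polymorphic pseudogene and shares 61.4% of its 31-base words with other genes, mostly H2-T22. The count of 5 went to 0 without WT replicate 2, WT replicate 3 or CgA-KO replicate 1, and to 2 without CgA-KO replicate 2.

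Among 14 tested genes of interferon signalling, 4 rose and 0 fell, with a median of 0.45, and 2 rose without WT replicate 3. Irf8, a transcription factor of myeloid and B cells, rose from 6.28 ± 3.01 to 23.8 ± 1.16 CPM (log2 1.95, SE 0.309; edgeR adjusted p = 0.00774). Ifngr1, a chain of the interferon gamma receptor, rose from 14.2 ± 1.87 to 45.2 ± 13.5 CPM (log2 1.67, SE 0.249; adjusted p = 0.00622). Ifng itself did not pass the filter on low counts. Of 10 factors of class I promoters, Nfkb1, an NF-kappaB subunit, rose (log2 0.76; adjusted p = 0.0419) and Nfyb, a subunit of the CCAAT-binding factor, fell (log2 -0.77; adjusted p = 0.0373). Their calls were kept, of the 6 fits without 1 library, only in that without WT replicate 1.

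The remaining lists of the class I route held no called gene. The 14 standard 20S subunits had a median log2 fold change of -0.41, with 0 above 0 and 4 at an unadjusted edgeR p under 0.05, a share close to the 29.1% of all genes. DESeq2 called 1 of them. With scaling by library size alone, which moved the median of all genes from -0.0075 to 0.26, 11 of the 14 were below 0 and their median was -0.099. Without WT replicate 2 it was -0.16. The 18 subunits of the regulatory particle of the proteasome had a median of -0.11 (0.17 by library size alone), with 0 at an unadjusted p under 0.05 and 0 called by DESeq2. Genes of folding and peptide trimming in the endoplasmic reticulum (9 tested) had a median of -0.28 (0.0030 by library size alone), and activator and assembly genes of the proteasome (9 tested) a median of -0.27 (0.038 by library size alone, -0.089 without WT replicate 2 and -0.16 without CgA-KO replicate 1). Each of these lists had 1 gene at an unadjusted p under 0.05 and 1 called by DESeq2.

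**Figure D4:**
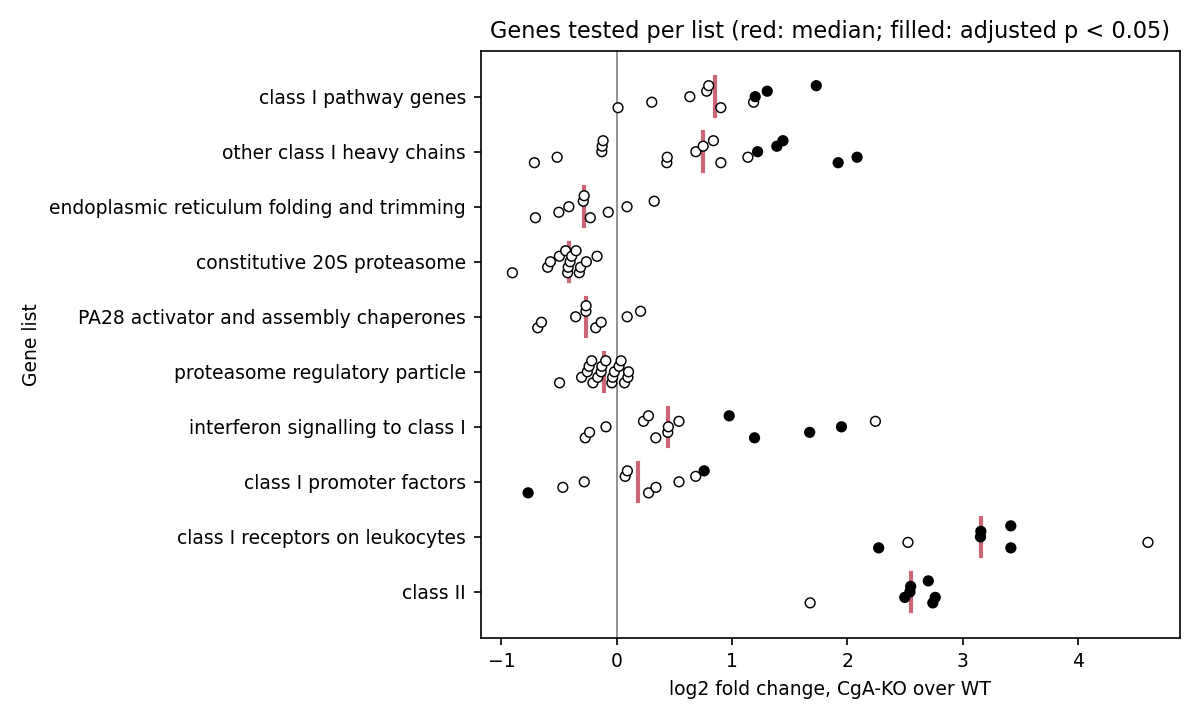
Log2 fold change of CgA-KO over WT for each tested gene of the pathway lists and of MHC class II (circles, filled at an edgeR adjusted p under 0.05), with the median of each list in red. The medians run from -0.41 for the standard 20S proteasome to 0.85 for the class I pathway genes, 2.55 for class II and 3.16 for the list of class I receptors.

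The genes on the other side of the class I contact, listed as receptors of leukocytes for class I molecules, were tested for 7 of 12. The list includes Lilrb4a, for which binding to class I is not established. Of these 5 rose and 0 fell, with a median of 3.16. The count was 2 without WT replicate 2 or WT replicate 3 and 3 without CgA-KO replicate 1. With all 6 libraries it was 4 by library size alone, upper-quartile scaling, limma-voom or the replicate block, and 6 by DESeq2. With at least 10 counts asked of every library, only 2 genes of the list were tested. These 2 rose, with a median of 2.75. Klrd1, a chain of an NK receptor for a nonclassical class I molecule, rose from 0.215 ± 0.0715 to 2.40 ± 0.959 CPM (log2 3.42, SE 0.535; edgeR adjusted p = 0.00740). Its partner Klrc1 had only 2, 3 and 2 counts in WT and 42, 18 and 36 in CgA-KO (log2 3.42, SE 0.680; adjusted p = 0.0158), a call lost without WT replicate 2, WT replicate 3 or CgA-KO replicate 1. Klrd1 had 2, 7 and 4 counts in WT. Klrd1 and Klrc1 passed the filter on low counts only through the CgA-KO libraries, so a rise was a condition of their being tested. Cd8a, the coreceptor for class I on CD8 T cells, measured 2.15, 0.298 and 2.33 CPM in WT and 4.55, 30.1 and 6.81 CPM in CgA-KO (log2 3.16, SE 0.858; adjusted p = 0.0449). The other called receptors were Pirb, from 8.60 ± 4.996 to 40.7 ± 9.22 CPM (log2 2.27, SE 0.408; adjusted p = 0.0117), and Lilrb4a, from 2.43 ± 1.86 to 20.6 ± 7.42 CPM (log2 3.15, SE 0.566; adjusted p = 0.0117), inhibitory receptors mainly of myeloid cells and B cells, both named after their values were seen. Pirb was not called without WT replicate 3 (adjusted p = 0.0816), nor Lilrb4a without WT replicate 2 (adjusted p = 0.0937). CgA-KO replicate 2 was far above the other livers for Cd8a, and without it the log2 fold change was 1.89 with an adjusted p of 0.163. Across the 15 alternatives that tested Cd8a, its adjusted p was under 0.05 in 4, the same edgeR fit read at 0.01 among them.

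Markers of several leukocyte types rose in CgA-KO livers. Ptprc, which all leukocytes carry, measured 23.5, 4.81 and 7.41 CPM in WT and 72.2, 75.0 and 50.2 CPM in CgA-KO (log2 2.50, SE 0.520; edgeR adjusted p = 0.0179). Of 8 Kupffer cell markers 7 rose, and their summed level was 99.7 to 250.2 CPM in WT and 944 to 1619 CPM in CgA-KO. Of 7 tested T and NK cell markers 5 rose, with sums of 3.53 to 13.5 and 46.8 to 106 CPM. All 3 tested neutrophil markers rose, with sums of 2.54 to 9.96 and 28.4 to 137 CPM. Of 4 B cell markers 0 were called, 0 at an unadjusted edgeR p under 0.05 and 0 by DESeq2, with sums of 3.40 to 45.6 and 8.29 to 40.4 CPM. The Ptprc call was lost without WT replicate 2, WT replicate 3, CgA-KO replicate 1 or CgA-KO replicate 2 (adjusted p from 0.0616 to 0.134). It was also lost with all 6 libraries when the filter asked only for a total of at least 1 count. Under that filter the markers that rose numbered 5 for Kupffer cells, 1 for T and NK cells and 1 for neutrophils. With at least 10 counts asked of every library, only 2 T and NK markers and 2 neutrophil markers were tested, and these rose. Over the fits without 1 library, the markers that rose numbered 4 to 7 for Kupffer cells (fewest without WT replicate 2), 0 to 5 for T and NK cells (0 without WT replicate 2 or WT replicate 3, 2 without CgA-KO replicate 2, 3 without WT replicate 1) and 0 to 3 for neutrophils (0 without WT replicate 3, 1 without WT replicate 1, WT replicate 2 or CgA-KO replicate 2). The T and NK and the neutrophil sums were highest in CgA-KO replicate 2, the library highest for every member. So were Ptprc, the endothelial and bile duct sums, and the stellate sum (410 CPM, against 290 and 251 CPM in CgA-KO replicates 1 and 3). Not every T and NK marker followed its sum. Cd4 measured 26.3, 1.97 and 16.5 CPM and Gzma 1.25, 0.254 and 7.89 CPM in CgA-KO replicates 1, 2 and 3. The Kupffer, B cell and dendritic cell sums were highest in CgA-KO replicate 1 instead (1619, 40.4 and 22.8 CPM, against 1381, 10.6 and 13.6 CPM in replicate 2). Among WT livers, replicate 1 was highest for Ptprc, for the Kupffer and T and NK sums and for Tap1, Tap2, Psmb8, Psmb9 and Nlrc5, but not for H2-K1, H2-D1 or B2m. No listed leukocyte marker was at 0 in all libraries. The part of these cells in the class I values was not tested.

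Tap1 and Psmb8 were also set against Ptprc within each library. The log2 ratio of Tap1 to Ptprc counts was 0.011, 1.70 and 0.84 in WT and -0.55, 0.15 and -0.30 in CgA-KO, a difference of -1.08 (SE 0.530) with overlap (exact permutation p = 0.2, adjusted 0.22). Psmb8 relative to Ptprc was lower in every CgA-KO library, by -1.56 (SE 0.661; exact permutation p = 0.1, adjusted 0.138). Without both WT replicate 1 and CgA-KO replicate 2, a pair left out after the data were seen, Tap1, Psmb8 and Psmb9 were called (edgeR adjusted p = 0.00401, 0.0276 and 0.0186). The log2 fold changes in that fit were 0.30 for H2-K1, 0.73 for H2-D1 and 0.094 for B2m. WT replicate 1, left out here, was the highest WT library for Tap1, Psmb8 and Psmb9. Without CgA-KO replicate 2 alone, Psmb8 and Psmb9 were not called (edgeR adjusted p = 0.0565 and 0.116).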

How the data were processed

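Per the labels, each of 3 WT and 3 CgA-KO livers gave 1 poly(A)-selected library. The authors quantified reads per transcript with Salmon 1.4.0 against GRCm38 (mm10), and deposited unscaled whole-number counts in 32212 rows, 78 of which repeat a gene symbol. How transcripts were brought to genes, and the strand of the counting, are not given in the sources used here. Reads shared by near-identical genes may be split, and this touches the H2 genes most. Columns left without a sample numbered 0.

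Counts were analysed with edgeR 4.0.16 (filterByExpr with a minimum count of 10, TMM factors, quasi-likelihood test, two-sided, Benjamini-Hochberg over 13867 genes, calls at an adjusted p under 0.05) in R 4.3.3. Alternatives were DESeq2 1.42.0, limma-voom (limma 3.58.1), other scalings, filters and thresholds, a replicate block and fits without each library. Ratios within a library had 0.5 counts added. The fit was tested on simulated data. The members, the gene lists and the naming rule (all members, their standard subunits, Chga, the 3 largest called genes of each list, fixed markers and the 5 genes most like the members) were chosen with earlier results of these data known. Gm3375, H2-Q10, H2-T22, Ifng, Pirb, Lilrb4a, Cd4 and Gzma fall outside that rule and were named after their values were seen. A gene under the rule is not reported here. Coordinates are from GENCODE M21 on GRCm38. Shared 31-base words were counted over its transcripts, in the sense direction only. Depth limits precision, with 3 counts equal to 0.0951 to 0.269 TMM-normalized CPM, for counting error only.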

Additional observations from a re-analysis of the deposited data

How the results depend on the processing

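Tap1, Psmb8 and Psmb9 stayed above 0 in all 16 alternatives and kept their calls in 13, 12 and 9 of them. The 16 include the same edgeR fit read at an adjusted p under 0.01, where these genes were not called. They also include the fit without WT replicate 1 and CgA-KO replicate 2, added after seeing the data. H2-D1 passed in 7, Tapbp in 2, Tap2 in 1, and H2-K1, B2m, Psmb10 and Nlrc5 in 0. DESeq2 called 2592 genes and 5 members (H2-D1 and Tapbp in addition). At an adjusted p under 0.01, edgeR called 360 genes, 265 of them higher, 0 members and 3 genes of the pathway lists in place of 16. Leaving out 1 library gave 394 to 2126 called genes, 276 to 1563 of them higher, 0 to 4 members and 4 to 16 list genes. Members called were 0 without WT replicate 2 or WT replicate 3 and 1 without CgA-KO replicate 2. Fewer samples entered each of these fits, and the cause of the other changes was not tested. Psmb10 turned below 0 with DESeq2 (-0.015), limma-voom (-0.078) and the replicate block (-0.087). It ranged from -0.43 to 0.26 over the fits that each lacked 1 library, below 0 when CgA-KO replicate 2 or WT replicate 3 (-0.088) was left out, and was -0.37 with WT replicate 1 and CgA-KO replicate 2 both left out (added after seeing the data). The log2 ratio of the summed heavy chains ranged from -0.035 to 0.44 without 1 library, also added after seeing the data, and turned below 0 only without CgA-KO replicate 2. Scaling by library size alone raised the share of calls that were higher from 69.1% to 86.6%. The labels do not say whether the replicate numbers pair the samples. Same-numbered livers correlated at 0.20, 0.013 and -0.066 in their deviations, and not every sample correlated best with its own number. With 3 livers per genotype these correlations cannot decide whether the samples are paired. With the replicate block 1498 genes and 4 members were called, H2-D1 being added (adjusted p = 0.0412). The 3 subunit ratios kept their sign in every alternative run. With 3 livers per genotype and no exact p under 0.1, single ratios cannot pass a threshold of 0.05.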

Other observations

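The MHC class II genes, which present peptides taken up from outside the cell and are expressed mainly by professional antigen-presenting cells, were measured beside class I. Of 7 class II genes tested, 6 rose and 0 fell, and the median log2 fold change was 2.55 for class II, beside 0.85 for the class I members. Cd74, the invariant chain, rose from 60.9 ± 55.0 to 411 ± 148 CPM (log2 2.76, SE 0.611; edgeR adjusted p = 0.0219). The count of 6 went to 0 without WT replicate 2, WT replicate 3 or CgA-KO replicate 1, and to 2 without CgA-KO replicate 2. With all 6 libraries it was also 0 when the filter asked only for a total of at least 1 count, and at an adjusted p under 0.01. The class II sum was highest in CgA-KO replicate 1 (1246 CPM, against 793 CPM in replicate 2). Relative to B2m within a library, Cd74 was higher in every CgA-KO liver, by 2.53 on the log2 scale (SE 0.967; exact permutation p = 0.1, adjusted 0.138 over 11 ratios).

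Of the single markers, Vsig4 and Clec4f of Kupffer cells rose (log2 3.35 and 2.96; edgeR adjusted p = 0.00322 and 0.0122), as did Cd3e and Nkg7 of T and NK cells (log2 3.60 and 3.86; adjusted p = 0.0149 and 0.0331). Cd79a of B cells (log2 0.011), Stab2 of sinusoidal endothelium (log2 0.83; adjusted p = 0.0632) and Alb of hepatocytes (log2 -0.23) did not pass. Among 5 sinusoidal endothelial markers 1 rose and 1 fell, 3 of 4 stellate cell markers rose, 1 of 4 dendritic cell markers rose, and 0 of 3 bile duct and 0 of 7 hepatocyte markers were called by edgeR (0 and 1 at an unadjusted p under 0.05, and 0 and 1 by DESeq2). Leaving out WT replicate 3 brought the stellate count to 0, and leaving out CgA-KO replicate 1 or CgA-KO replicate 2 brought it to 1. Clec4f, Cd3e and Nkg7 were not called without WT replicate 2 or WT replicate 3, and Nkg7 was also lost without WT replicate 1 or CgA-KO replicate 2 (log2 2.23 and adjusted p = 0.102 in the latter).

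The genes outside the pathway whose log2 CPM over the 6 libraries was most like the mean of the members were Gpatch4 (Pearson's r 0.998), Itga6 (0.997), Pcolce (0.995), Agtrap (0.995) and Pglyrp1 (0.994). These values describe 6 libraries of 2 genotypes that share their scaling, with no p. All 5 had their highest level in CgA-KO replicate 2, and of them Agtrap was called by edgeR (log2 1.61, SE 0.422; adjusted p = 0.0396), a call lost without WT replicate 2, WT replicate 3, CgA-KO replicate 1 or CgA-KO replicate 2.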
